A study of Homo sapiens with 12 samples.

Results

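Natural killer (NK) cell receptor ligands are proteins on a target cell that NK cells read before they kill it. In MIA PaCa-2, an established human pancreatic carcinoma cell line, the RNA of 10 such genes (MICA, MICB, ULBP1, ULBP2, ULBP3, RAET1G, RAET1L, NCR3LG1, BAG6 and ICAM1) was compared between 4 lines. The genes were picked by symbol from what their proteins are known to bind, and all 10 were among the 63086 genes of the table. The lines were WT, which was not manipulated, CRISPR Control, which went through editing and carried only a silent change in TIMP1, and TIMP1 KO 1 and TIMP1 KO 2, both knockout clones in which guides cut exon 4 of TIMP1, which encodes a secreted inhibitor of matrix metalloproteinases. All lines grew in the same medium without any other treatment, and each line had 3 libraries. Each edited line is a single line or clone, so what its editing did and what its clone had beforehand cannot be told apart. The sample titles call the libraries of a line biological replicates, but no source used here says that they came from separate cultures, so the p-values measure the spread between these libraries.

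NK cells balance activating against inhibitory receptors. The receptor NKG2D recognises MICA and MICB, relatives of MHC class I encoded beside HLA-B, and the ULBP and RAET1 proteins, a smaller family clustered on the long arm of the same chromosome. Cells display these ligands mainly under stress, DNA damage, infection or transformation, and can cut them from the surface with metalloproteinases. The receptor NKp30 recognises B7-H6, the product of NCR3LG1, and BAG6, a chaperone of the cytosol and nucleus that can be exported. ICAM1 is the adhesion molecule that the integrin LFA-1 of NK cells grips, and inflammatory signals, among them those through NF-kB, are known to raise its transcription. All measurements here are of RNA, and neither surface protein nor NK cell killing was measured in them.

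The upstream sequences of 5 members are shown as examples of genes whose lines stood little or far apart. MICA and MICB had small ranges of line means, at 0.40 and 0.18 on the log2 scale, and BAG6, which is not shown, had 0.37. ULBP1 and ULBP2 had the largest ranges among members with a mean of at least 50, and ICAM1 was higher in each edited line. Each run is the 200 bases from 250 to 51 before the RefSeq transcription start (build GRCh38.p14), 5′ to 3′ on the strand of the gene. The windows are chr6:31403345-31403544 for MICA, chr6:31497895-31498094 for MICB, chr6:149963693-149963892 for ULBP1, chr6:149941764-149941963 for ULBP2 and chr19:10270870-10271069 for ICAM1, all on the plus strand. Capitals mark matches, on either strand, to GGNNNTTCC (NF-kB type), TTCNNNGAA (STAT type), GAAANNGAA (interferon-stimulated type), GAANNTTC (heat shock type) or TGACG (cAMP response type).
MICA: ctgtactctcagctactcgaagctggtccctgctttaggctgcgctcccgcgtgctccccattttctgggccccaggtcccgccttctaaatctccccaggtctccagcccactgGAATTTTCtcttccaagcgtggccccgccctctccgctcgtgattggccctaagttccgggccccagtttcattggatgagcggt
MICB: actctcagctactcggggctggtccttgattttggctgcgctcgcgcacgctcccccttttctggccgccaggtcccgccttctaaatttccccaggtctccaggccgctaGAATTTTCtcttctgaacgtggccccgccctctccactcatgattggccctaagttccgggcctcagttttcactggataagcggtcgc
ULBP1: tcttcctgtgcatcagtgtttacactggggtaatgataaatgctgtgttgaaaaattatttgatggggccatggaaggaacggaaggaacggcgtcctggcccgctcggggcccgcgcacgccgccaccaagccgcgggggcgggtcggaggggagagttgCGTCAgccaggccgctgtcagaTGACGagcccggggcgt
ULBP2: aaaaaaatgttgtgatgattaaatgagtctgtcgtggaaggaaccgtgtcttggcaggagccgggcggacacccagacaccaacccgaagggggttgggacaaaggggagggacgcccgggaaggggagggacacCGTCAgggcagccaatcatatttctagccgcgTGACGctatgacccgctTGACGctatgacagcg
ICAM1: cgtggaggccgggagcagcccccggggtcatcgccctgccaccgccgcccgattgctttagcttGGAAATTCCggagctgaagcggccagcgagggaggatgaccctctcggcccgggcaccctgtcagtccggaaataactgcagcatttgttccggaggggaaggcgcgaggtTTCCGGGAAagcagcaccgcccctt

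The windows of MICA and MICB were 83.2% identical over 196 aligned bases, and each held a single heat shock match, 135 bases before the start in MICA and 139 in MICB. ICAM1 held an NF-kB match 186 bases before its start, which reads as a match on both strands, and a STAT match at 75 bases. ULBP1 held 2 TGACG matches and ULBP2 held 3. Of 35116 RefSeq promoters searched over the same window, 13.5% held the NF-kB letters, 5.48% the STAT letters, 5.55% the interferon-stimulated letters, 4.60% the heat shock letters and 16.0% TGACG. Among the 15782 promoters of tested genes the shares were 15.2%, 4.65%, 4.41%, 3.47% and 20.0%, in the same order. No NF-kB, STAT, interferon-stimulated or heat shock match stood in the windows of ULBP1, ULBP2, ULBP3, RAET1G, RAET1L or NCR3LG1. The GC box GGGCGG was present in 35.0% of all windows and in 51.8% of those of tested genes. It had 6 matches in the window of ULBP3 and none in those of RAET1G and RAET1L. A match is a description of the letters and not evidence of a bound factor.

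By the GENCODE v44 annotation of GRCh38, 8 members lie on chromosome 6. MICA (chr6:31399784-31415315, plus strand), MICB (chr6:31494881-31511124, plus) and BAG6 (chr6:31639028-31652705, minus) lie in the MHC region of the short arm. RAET1G (chr6:149916878-149923121, minus), ULBP2 (chr6:149942014-149949235, plus), ULBP1 (chr6:149963943-149973715, plus), RAET1L (chr6:150018334-150025532, minus) and ULBP3 (chr6:150061053-150069121, minus) form a cluster on the long arm. NCR3LG1 lies at chr11:17351800-17377341 and ICAM1 at chr19:10271093-10286615, both on the plus strand. The ULBP and RAET1 genes belong to the same family, and among these members identical exonic stretches were most frequent between ULBP2 and RAET1L. Of the exonic stretches of 100 bases of ULBP2, 11.9% were identical to a stretch of RAET1L, and 11.8% of those of RAET1L were identical to ULBP2, so reads there can be dropped or assigned to the wrong gene. MICA, MICB and NCR3LG1 shared no such stretch with another gene. Of the stretches of ICAM1, 20.3% lie opposite ICAM4-AS1, an antisense gene with a mean normalised count of 0.788, and the strand setting of the counting is not given in the sources used here.

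The libraries held 26908701 to 36093563 reads in genes, and values are normalised counts, which the authors made by dividing reads per gene by a size factor per library. Carcinoma markers were present in every library, among them KRT8 at 34968 to 138359 normalised counts and EPCAM, an epithelial adhesion protein, at 1199 to 2226. The sum of the 5 carcinoma markers was lower in CRISPR Control (106017 to 134201) than in the other lines (250012 to 315114). The sum of 4 fibroblast markers was 7700 to 11899 in WT and CRISPR Control, 50848 to 64825 in KO 1 and 28902 to 39870 in KO 2, nearly all of it COL1A1, a collagen, while DCN and LUM stayed at or under 5.26 everywhere. The sum of 5 markers of other leukocytes was 38.2 to 55.2 in WT and CRISPR Control, 76.0 to 92.9 in KO 1 and 160 to 173 in KO 2, most of it CD14, with PTPRC, which all leukocytes carry, at 0 to 7.46. The part of these differences in the results was not tested. Of 10 NK cell markers, 9 were at 0 in all 3 WT libraries and 5 in all libraries of each other line. The sum of the 10 ran from 9.09 to 30.7 over all libraries, and GZMB, the cytotoxic protease of NK cells, was at 0 in all of them. The targeted gene TIMP1 averaged 3553 ± 274 normalised counts in the WT libraries and 2690 ± 357 in those of CRISPR Control (SD, n = 3). It averaged 1600 ± 32.8 in the KO 1 libraries and 1161 ± 28.8 in those of KO 2. Its RNA stood at 75.7% of WT in CRISPR Control, at 45.0% in KO 1 and at 32.7% in KO 2, and the libraries of the 4 lines did not overlap. An edit that shifts the reading frame need not remove the RNA, so these levels do not measure the protein.

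**Figure D1:**
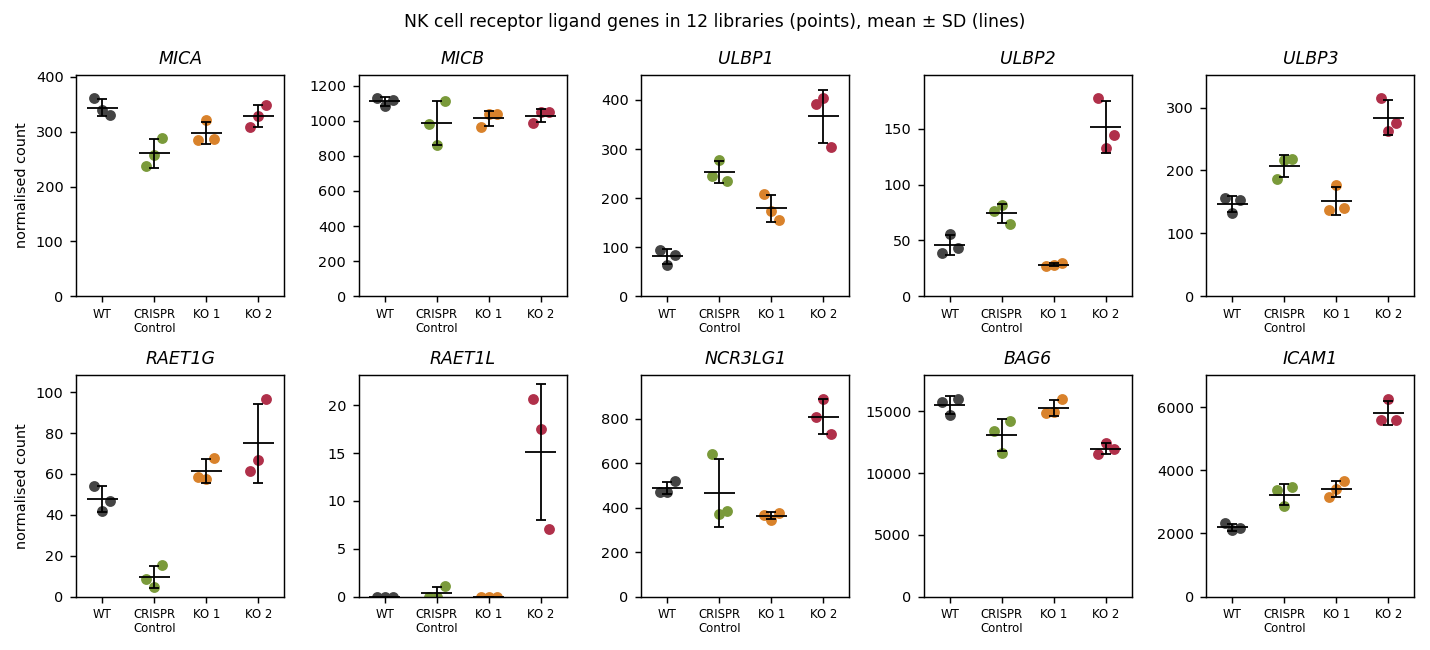
Normalised count (vertical axis, from 0, a separate scale in each panel) of the 10 ligand genes in the 3 libraries of each of 4 lines (horizontal axis). Points are libraries and black bars are the mean ± SD. KO 2 stands above the other lines for ULBP1, ULBP2, ULBP3, NCR3LG1 and ICAM1, while CRISPR Control stands below them for RAET1G, at 9.59 against 47.6 in WT.

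Of the MIC genes, MICA was lower in CRISPR Control than in WT and KO 2, and MICB did not pass the test between any pair of lines. MICA had 361, 340 and 331 normalised counts in WT replicates 1, 2 and 3, and 237, 257 and 289 in CRISPR Control. KO 1 held 285, 321 and 287, and KO 2 held 308, 329 and 349. The CRISPR Control libraries lay below all those of WT and KO 2, while KO 2 overlapped WT and KO 1. In the limma fit over all genes MICA was lower in CRISPR Control than in WT (log2 fold change -0.40, SE 0.11, adjusted p = 0.00451) and higher in KO 2 than in CRISPR Control (0.33, adjusted p = 0.0111). It did not pass the threshold against WT in KO 1 (-0.21, 95% interval -0.44 to 0.02, adjusted p = 0.145) or KO 2 (-0.07, -0.30 to 0.16, adjusted p = 0.622). The sign of the KO 2 value turned, to 0.028, when the libraries were scaled to equal totals.

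MICB had 1128, 1082 and 1120 normalised counts in WT and 980, 862 and 1115 in CRISPR Control. KO 1 held 965, 1041 and 1037, and KO 2 held 986, 1051 and 1048. All 6 knockout libraries lay below the WT libraries, while CRISPR Control spanned both. No pair of lines passed the threshold for MICB, which had the smallest range of line means among the 8 members with a mean of at least 50, at 0.18 on the log2 scale. Against WT the log2 fold changes were -0.13 in KO 1 (95% interval -0.32 to 0.05, adjusted p = 0.271), -0.11 in KO 2 (-0.30 to 0.08, adjusted p = 0.304) and -0.18 in CRISPR Control (-0.36 to 0.01, adjusted p = 0.0979). Without CRISPR Control replicate 3, the last of these passed, at -0.27 (adjusted p = 0.0136).

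ULBP1, a ligand that is anchored in the membrane by a lipid, rose in every edited line. It had 93.9, 64.5 and 84.8 normalised counts in WT and 245, 278 and 235 in CRISPR Control. KO 1 held 207, 174 and 155, and KO 2 held 393, 403 and 305. No line overlapped another, and the order of the lines was WT, KO 1, CRISPR Control, KO 2. Against WT the log2 fold change was 1.64 in CRISPR Control (SE 0.16, adjusted p = 7.88e-08), 1.14 in KO 1 (SE 0.16, adjusted p = 1.71e-05) and 2.17 in KO 2 (SE 0.16, adjusted p = 1.57e-09), the last a 4.50-fold difference. KO 1 was lower than CRISPR Control (-0.50, adjusted p = 0.0103), a call that was lost without KO 1 replicate 3 (-0.40, adjusted p = 0.0588). KO 2 was higher than CRISPR Control (0.53, adjusted p = 0.00678).

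ULBP2, its neighbour in the cluster, moved in opposite directions in the knockout lines. It had 38.5, 55.5 and 42.9 normalised counts in WT and 76.0, 81.8 and 64.8 in CRISPR Control. KO 1 held 27.0, 28.1 and 30.0, and KO 2 held 177, 132 and 144. Again no line overlapped another, with KO 1 at the bottom and KO 2 at the top. ULBP2 fell in KO 1 against WT (-0.65, SE 0.19, adjusted p = 0.0135) and rose in CRISPR Control (0.70, SE 0.19, adjusted p = 0.00527) and KO 2 (1.71, SE 0.19, adjusted p = 5.31e-07). Between the knockout lines the difference was 2.36 (SE 0.19, adjusted p = 1.86e-08), a 5.15-fold higher level in KO 2. Without WT replicate 2, the highest WT library, the fall in KO 1 was -0.50 and did not pass (adjusted p = 0.0772).

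ULBP3 had 156, 132 and 152 normalised counts in WT and 187, 216 and 218 in CRISPR Control. KO 1 held 137, 177 and 140, and KO 2 held 315, 262 and 275. KO 1 overlapped WT, while CRISPR Control lay above both and KO 2 above all. ULBP3 rose against WT in CRISPR Control (0.49, SE 0.14, adjusted p = 0.00539) and KO 2 (0.95, SE 0.14, adjusted p = 1.01e-05). In KO 1 it did not pass, at 0.04 (95% interval -0.25 to 0.32, adjusted p = 0.867), and the sign turned without WT replicate 2 (-0.039) or KO 1 replicate 2 (-0.081).

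RAET1G had the opposite profile in CRISPR Control. It had 54.3, 41.8 and 46.7 normalised counts in WT and 8.64, 4.74 and 15.4 in CRISPR Control. KO 1 held 58.3, 57.4 and 68.0, and KO 2 held 61.3, 66.6 and 96.9. CRISPR Control lay far below the other lines, and all 6 knockout libraries lay above WT. RAET1G fell in CRISPR Control against WT (-2.32, SE 0.31, adjusted p = 4.14e-06). It was higher than CRISPR Control in KO 1 (2.68, SE 0.31, adjusted p = 3.78e-07) and KO 2 (2.94, SE 0.31, adjusted p = 8.93e-08). Against WT, KO 1 (0.36, 95% interval -0.28 to 1.00, adjusted p = 0.390) and KO 2 (0.62, -0.02 to 1.27, adjusted p = 0.0931) did not pass. KO 2 passed against WT with a pseudocount of 10 (0.54, adjusted p = 0.0301), in edgeR (0.66, adjusted p = 0.0240) and DESeq2 (0.66, adjusted p = 0.0223), and without CRISPR Control replicate 2 (adjusted p = 0.0368) or 3 (adjusted p = 0.0411).

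RAET1L was detected mainly in KO 2. It was at 0 in all libraries of WT and KO 1 and had 1 read in a single CRISPR Control library. In KO 2 it had 20.7, 17.5 and 7.06 normalised counts, from 7 to 25 reads. The KO 2 mean of 15.1 ± 7.14 was at least 5.05-fold higher than in WT, where 3 reads per library is the most that a count of 0 allows, and that limit covers counting error only. RAET1L was below the minimum mean of 10 normalised counts and was not tested. ULBP2, with which it shares identical exonic stretches, was also highest in KO 2, and the part of shared reads in the RAET1L value was not tested.

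**Figure D2:**
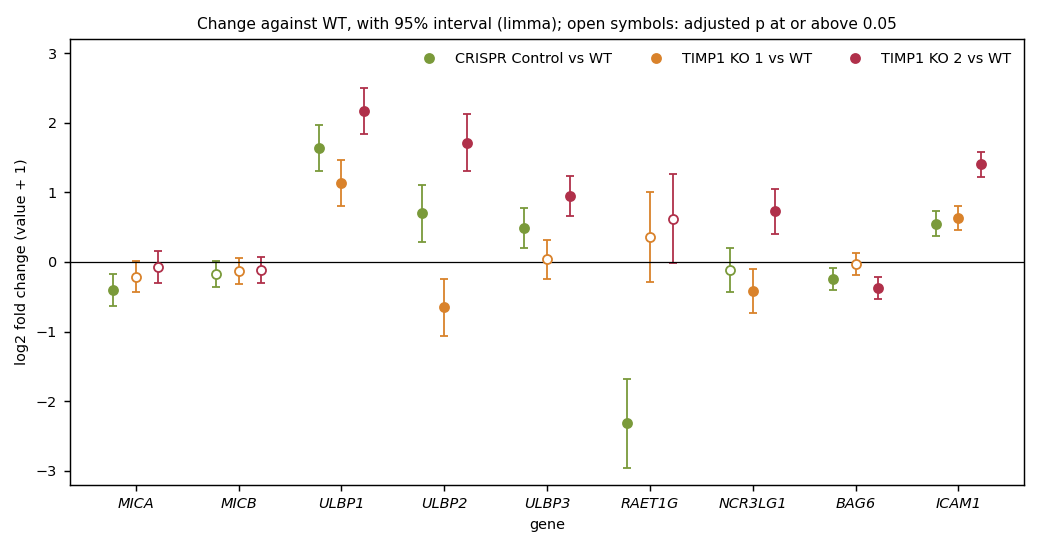
Log2 fold change against WT on the log2(normalised count + 1) scale (vertical axis) of the 9 tested ligand genes (horizontal axis) in CRISPR Control, KO 1 and KO 2, with 95% intervals from limma. Filled symbols passed an adjusted p of 0.05 and open symbols did not. ULBP1 and ICAM1 are above 0 in all 3 edited lines, ULBP2 and NCR3LG1 lie on opposite sides of 0 in the knockout lines, and MICB is open throughout.

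The NKG2D ligand genes were also set on a common scale, as normalised counts per kilobase of annotated exon. The length is that of all annotated exons of a gene together, which can differ from that of the transcripts present. Stretches shared between genes were not corrected for. Orders of genes, sums and shares on this scale are therefore approximate. MICB stood highest of the 7 in every line, from 352 ± 45.3 per kilobase in CRISPR Control to 397 ± 8.88 in WT (SD, n = 3), and RAET1L stood lowest in every line. In WT the order below MICB was MICA at 89.4 ± 3.95, ULBP3 at 47.2 ± 4.22, ULBP2 at 34.2 ± 6.60, RAET1G at 32.0 ± 4.24 and ULBP1 at 25.3 ± 4.68, and ULBP2, RAET1G and ULBP1 overlapped. In KO 2 the order changed to ULBP1 at 114 ± 16.9, ULBP2 at 113 ± 17.4, ULBP3 at 91.3 ± 8.80 and MICA at 85.3 ± 5.32, of which ULBP1 and ULBP2 did not differ beyond their spread, nor did ULBP3 and MICA. MICA thus went from the second of the 7 in WT to the fifth in KO 2 with nearly the same level per kilobase.

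The sum of the 7 NKG2D ligand genes was 833 ± 10.2 normalised counts per kilobase in KO 2, beside 607 ± 19.5 in KO 1, 628 ± 43.1 in CRISPR Control and 625 ± 17.4 in WT. The KO 2 libraries, at 827 to 845, lay above all others, and the KO 2 sum was 1.33-fold that of WT. The 2 MIC genes made up 77.8% ± 0.399 of the sum in WT and 72.5% ± 1.05 in KO 1, but 66.8% ± 3.55 in CRISPR Control and 54.4% ± 2.80 in KO 2. An exact permutation test of the sum gave p = 0.1 for KO 2 against each other line (two-sided, adjusted p = 0.2 over the 6 pairs), which is the smallest that 3 libraries against 3 allow. The other pairs gave p from 0.4 to 0.9 in the same exact permutation test. A higher level in all cells of a line and a larger share of cells with the RNA cannot be told apart in these bulk samples.

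**Figure D3:**
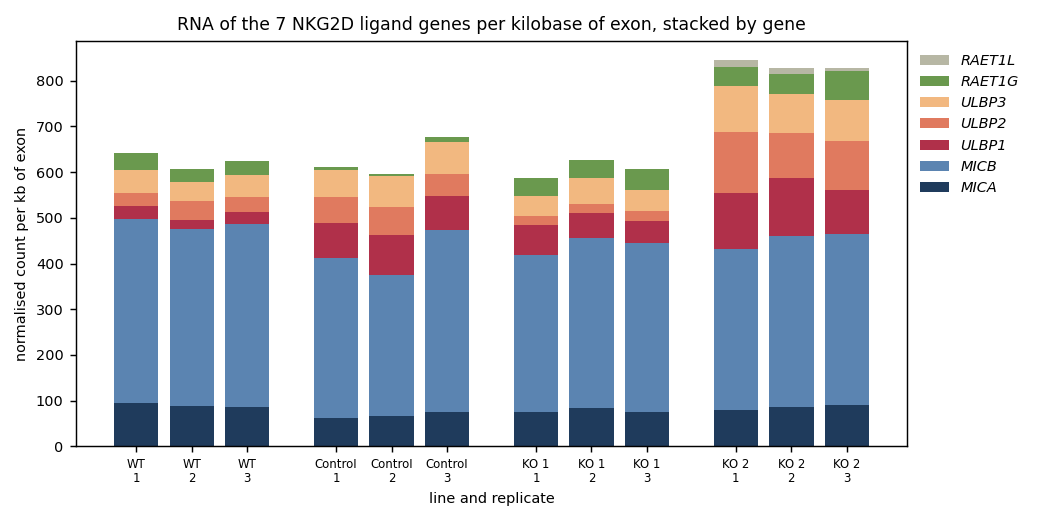
Normalised count per kilobase of exon (vertical axis, from 0) of the 7 NKG2D ligand genes, stacked, in each of 12 libraries (horizontal axis). MICB is the largest block in every library, and the KO 2 bars reach 827 to 845 through larger ULBP blocks.

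NCR3LG1, which encodes the NKp30 ligand B7-H6, was highest in KO 2. It had 473, 471 and 522 normalised counts in WT and 643, 372 and 386 in CRISPR Control. KO 1 held 369, 347 and 376, and KO 2 held 807, 892 and 733. All KO 2 libraries lay above all others and all KO 1 libraries below WT, while CRISPR Control replicate 1 stood apart from its line. NCR3LG1 rose in KO 2 against WT (0.73, SE 0.15, adjusted p = 0.000502) and against KO 1 (1.15, SE 0.15, adjusted p = 7.77e-06), where it was 2.22-fold higher.

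In KO 1, NCR3LG1 fell against WT (-0.42, SE 0.15, adjusted p = 0.0364). This call was lost with no minimum on the mean (adjusted p = 0.0619) and without any single library of WT or KO 1, where the log2 fold change was -0.45 to -0.37 and the adjusted p 0.0579 to 0.118. CRISPR Control did not pass against WT, at -0.11 (95% interval -0.43 to 0.21, adjusted p = 0.564). It passed without its replicate 1 (-0.36, adjusted p = 0.00708) and turned sign without its replicate 2 (0.029) or replicate 3 (0.0033).

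BAG6 had more RNA per kilobase of exon than any other member in every line, 2454 ± 110 normalised counts per kilobase in WT, and was lower in CRISPR Control and KO 2. It had 15785, 14732 and 16040 normalised counts in WT and 13428, 11660 and 14198 in CRISPR Control. KO 1 held 14868, 14941 and 15982, and KO 2 held 11590, 12427 and 11966. KO 1 overlapped WT, while CRISPR Control and KO 2 overlapped each other and lay below both. BAG6 was lower than in WT in KO 2 (-0.37, SE 0.08, adjusted p = 0.000383) and CRISPR Control (-0.25, SE 0.08, adjusted p = 0.00945), and not past the threshold in KO 1 (-0.02, 95% interval -0.18 to 0.13, adjusted p = 0.840). KO 1 was higher than CRISPR Control (0.23, adjusted p = 0.0143), a call lost without CRISPR Control replicate 2 (0.14, adjusted p = 0.0754) or KO 1 replicate 3 (0.19, adjusted p = 0.0699). KO 2 against CRISPR Control did not pass (-0.12, adjusted p = 0.157), and passed without CRISPR Control replicate 2 (-0.20, adjusted p = 0.0136).

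ICAM1 rose in every edited line and most in KO 2. It had 2317, 2101 and 2176 normalised counts in WT and 3362, 2855 and 3469 in CRISPR Control. KO 1 held 3143, 3422 and 3662, and KO 2 held 5600, 6272 and 5579. WT lay below and KO 2 above all other libraries, while CRISPR Control and KO 1 overlapped. Against WT the log2 fold change was 0.55 in CRISPR Control (SE 0.08, adjusted p = 2.31e-05), 0.63 in KO 1 (SE 0.08, adjusted p = 9.51e-06) and 1.40 in KO 2 (SE 0.08, adjusted p = 9.69e-11), the last 2.64-fold. KO 1 and CRISPR Control differed by 0.08 (95% interval -0.10 to 0.26, adjusted p = 0.418), whose sign turned without CRISPR Control replicate 2 (-0.0054). KO 2 exceeded CRISPR Control by 0.85 (adjusted p = 4.38e-08).

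Counted over the 9 tested members, 4 passed in KO 1 against WT, with ICAM1 and ULBP1 higher and ULBP2 and NCR3LG1 lower, where 35.5% of all tested genes passed. In KO 2 against WT 6 passed, 5 higher and BAG6 lower, against 55.0% of all genes. In CRISPR Control against WT 7 passed, 4 higher and 3 lower, against 53.4% of all genes. The 3 comparisons share the WT libraries. The median log2 fold change of the 9 was -0.02 in KO 1, 0.73 in KO 2 and -0.11 in CRISPR Control, beside 0.00, -0.01 and 0.01 for all tested genes.

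Against CRISPR Control, 5 of the 9 passed in KO 1 (2 higher, 3 lower, beside 63.0% of all genes) and 7 in KO 2 (all higher, beside 67.7%). MICB and BAG6 were the members that did not pass in KO 2. The median log2 fold change of the 9 was 0.05 in KO 1 and 0.53 in KO 2. Equal scaling of library totals moved the median of all genes by 0.12 in KO 2 against CRISPR Control and by 0.10 in KO 2 against KO 1. In KO 2 against WT it moved that median by 0.095.

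The study looked for TIMP1-dependent genes as those that differ between WT and both knockout lines but not between WT and CRISPR Control. As worded, the rule sets no direction, and 1 of the 9 tested members met it, NCR3LG1, which was lower in KO 1 and higher in KO 2, beside 10.5% of all tested genes. NCR3LG1 also met it in edgeR and DESeq2, and not with no minimum on the mean or without any single library of WT or KO 1 or CRISPR Control replicate 1. With the added condition of a common direction none of the 9 met it by limma, edgeR or DESeq2, beside 10.2% of all tested genes, and 0 met it at an unadjusted p under 0.05. The members past the threshold in both knockout lines were ICAM1, ULBP1, ULBP2 and NCR3LG1. ICAM1 and ULBP1 were higher in both, where 26.4% of all tested genes passed in a common direction, and both were also higher in CRISPR Control. ULBP2 was lower in KO 1 and higher in KO 2, and higher in CRISPR Control.

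The knockout lines differed from each other in 6 of the 9, beside 38.2% of all tested genes. ULBP2, NCR3LG1, ULBP1, ULBP3 and ICAM1 were higher in KO 2, by 2.36, 1.15, 1.03, 0.91 and 0.77 on the log2 scale, and BAG6 was lower, by a log2 fold change of -0.35. RAET1G (0.26, 95% interval -0.38 to 0.90), MICA (0.14, -0.09 to 0.37) and MICB (0.02, -0.17 to 0.21) did not pass.

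Ligands of inhibitory receptors included HLA class I genes that were higher, and some but not all cell adhesion genes that were lower, in both knockout lines. Of 17 such genes listed 13 were tested, and 5 were higher and 5 lower in KO 1 against WT, 8 higher and 4 lower in KO 2, and 4 higher and 3 lower in CRISPR Control. Of all tested genes 35.5%, 55.0% and 53.4% passed in the same comparisons, so the count in CRISPR Control was near the background. The list had medians of 0.15, 0.83 and 0.01. HLA-B, a classical MHC class I gene that neighbours MICA and whose protein can engage KIR receptors, reached 12988 ± 1585 normalised counts in KO 2 and had 2395 ± 54.3 in KO 1, beside 598 ± 26.0 in WT and 528 ± 89.9 in CRISPR Control. Its log2 fold change against WT was 2.00 in KO 1 (adjusted p = 3.74e-11) and 4.43 in KO 2 (adjusted p = 2.33e-16), while CRISPR Control did not pass (-0.19, adjusted p = 0.136). HLA-E, which presents leader peptides to the inhibitory receptor NKG2A, rose by 0.39, 0.78 and 1.35 in CRISPR Control, KO 1 and KO 2. HLA genes are similar in sequence, and the split of their reads was not examined.

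The inhibitory list also held genes that fell. CDH1, E-cadherin, a ligand of the receptor KLRG1, was lower than in WT in KO 1 (-3.23, adjusted p = 4.19e-12) and KO 2 (-3.81, adjusted p = 2.14e-13), at 128 ± 28.1 normalised counts in KO 1 and 84.9 ± 17.1 in KO 2 beside 1189 ± 56.6 in WT. NECTIN3, a binding partner of TIGIT, fell in KO 1 (-2.62, adjusted p = 1.47e-09) and KO 2 (-1.70, adjusted p = 2.00e-07) and rose in CRISPR Control by 1.64 (adjusted p = 3.70e-07). LGALS9, a galectin that binds TIM-3, was 4.31 higher in KO 2 (adjusted p = 2.29e-07) from a WT level of 2.62 ± 0.312 normalised counts.

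Of 18 other activating or adhesion ligands 9 were tested. In KO 1 3 were higher than in WT and 4 lower, in KO 2 4 were higher and 2 lower, and in CRISPR Control 5 were higher and none lower, with medians of 0.00, 0.29 and 0.55. The shares of all tested genes that passed were 35.5%, 55.0% and 53.4%, and the counts in KO 2 and CRISPR Control were near them. PVR, a ligand of the activating receptor DNAM-1 that TIGIT also binds, was lower than in WT in KO 1 (-0.48, adjusted p = 2.68e-05) and KO 2 (-0.45, adjusted p = 2.18e-05), and did not pass in CRISPR Control (adjusted p = 0.969). CADM1, a ligand of CRTAM, was lower in KO 1 (-1.15, adjusted p = 0.00529) and higher in KO 2 (1.08, adjusted p = 0.00465) and CRISPR Control (2.56, adjusted p = 8.21e-07). PDGFD, a growth factor that binds NKp44, was higher in all 3, by 0.89 in KO 1, 2.80 in KO 2 and 2.30 in CRISPR Control. NID1, a basement membrane protein whose shed form also binds NKp44, was lower in KO 1 (-1.12) and KO 2 (-1.17) and higher in CRISPR Control (0.67). The untested 9 included VCAM1, ICAM2 and ICAM3, each with a mean under the minimum.

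Enzymes that cut NKG2D ligands from the cell surface, some of which TIMP1 protein can inhibit, were tested together with a helper of this cutting, PDIA6, as 7 genes. Against WT 4 were higher and none lower in KO 1, 4 higher and 1 lower in KO 2, and 5 higher and none lower in CRISPR Control, beside 35.5%, 55.0% and 53.4% of all genes called. The medians were 0.23, 0.21 and 0.50. MMP9, a gelatinase, averaged 49.9 ± 11.7 normalised counts in KO 2, 16.3 ± 4.09 in KO 1 and 27.5 ± 8.12 in CRISPR Control, beside 7.49 ± 1.94 in WT. It passed in each edited line (adjusted p = 1.62e-06, 0.0175 and 0.000163). MMP2, the other gelatinase, was highest in CRISPR Control, at 1.45 against WT (adjusted p = 6.14e-11), with 0.57 in KO 1 and 0.48 in KO 2. MMP14, a membrane-anchored collagenase, rose in CRISPR Control (0.63) and KO 1 (0.29, adjusted p = 0.00518), with 0.00 in KO 2 (adjusted p = 0.979). PDIA6, a disulfide isomerase needed for MICA shedding, fell in KO 2 (-0.28, adjusted p = 0.00378).

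Of 16 stress and growth regulators of NKG2D ligands 14 were tested. Against WT 3 were higher and 4 lower in KO 1, 3 higher and 9 lower in KO 2, and 4 higher and 6 lower in CRISPR Control, where 35.5%, 55.0% and 53.4% of all genes passed. The medians were -0.01, -0.38 and -0.12. GADD45A, a growth arrest gene, averaged 1831 ± 207 normalised counts in KO 2, 499 ± 90.8 in KO 1 and 555 ± 35.7 in CRISPR Control, beside 328 ± 48.9 in WT, and was higher by 2.48 in KO 2 (adjusted p = 1.21e-11), 0.60 in KO 1 and 0.77 in CRISPR Control. CDKN1A, the cell cycle inhibitor p21, was higher by 1.58 in KO 1 (adjusted p = 8.81e-12) and 1.52 in KO 2 (adjusted p = 7.17e-12), and by 0.39 in CRISPR Control. E2F1, a transcription factor of cell cycle entry, was lower in all 3 (-0.94 in KO 1, -1.40 in KO 2 and -0.33 in CRISPR Control), as was its relative E2F2 (-0.61, -1.53 and -0.63). ATM, the kinase that senses DNA breaks, was lower in CRISPR Control (-0.88, adjusted p = 7.78e-06) and did not pass in KO 1 (0.25, adjusted p = 0.120) or KO 2 (0.01, adjusted p = 0.928).

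The 13 regulators of ICAM1 were all tested. Against WT 6 were higher and none lower in KO 1, 9 higher and 2 lower in KO 2, and 4 higher and 6 lower in CRISPR Control, against backgrounds of 35.5%, 55.0% and 53.4% of all genes. The medians were 0.18, 0.49 and -0.18. IRF1, an interferon-induced transcription factor, was higher in all 3, by 1.46 in KO 2, 0.44 in KO 1 and 0.52 in CRISPR Control. STAT3 was lower in KO 2 (-0.21, adjusted p = 0.0211) and CRISPR Control (-0.60) and higher in KO 1 (0.24, adjusted p = 0.0146). JAK1, a kinase of interferon receptors, was lower in KO 2 (-0.29, adjusted p = 0.00134) and higher in CRISPR Control (0.18, adjusted p = 0.0376).

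The 7 partners of BAG6 in the insertion of tail-anchored proteins and in protein quality control were all tested. Against WT 1 was higher in KO 1 (35.5% of all genes passed), 1 higher and 3 lower in KO 2 (55.0%), and 1 higher and 1 lower in CRISPR Control (53.4%), with medians of -0.10, -0.18 and 0.01. RNF126, a ubiquitin ligase that BAG6 recruits, was lower in KO 2 (-0.39, adjusted p = 0.00104), as was UBL4A, a subunit of the BAG6 complex (-0.32, adjusted p = 0.00343). CAMLG, a membrane receptor of the insertion pathway, was higher in KO 2 (0.32, adjusted p = 0.00640), and GET1, its partner, in KO 1 (0.29, adjusted p = 0.0348).

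**Figure D4:**
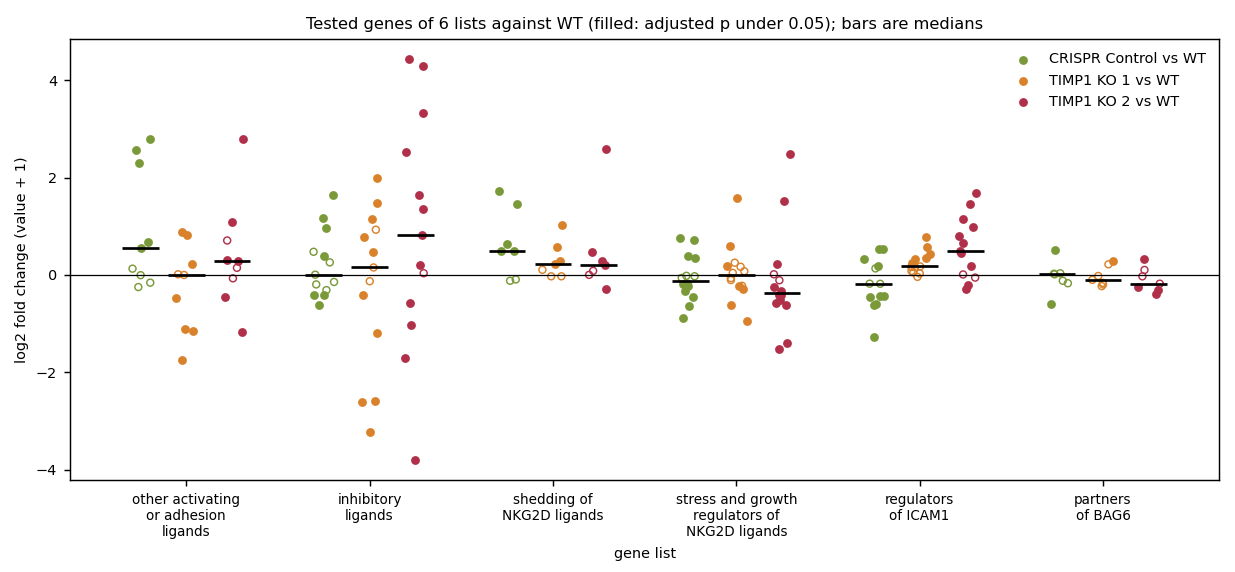
Log2 fold change against WT on the log2(normalised count + 1) scale (vertical axis) of the tested genes of 6 lists (horizontal axis) in CRISPR Control, KO 1 and KO 2. Filled points passed an adjusted p of 0.05, open points did not, and black bars are list medians. The inhibitory ligands spread most widely, from CDH1 at -3.81 to HLA-B at 4.43 in KO 2.

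The genes whose 4 line means were most like those of a member were sought among tested genes with a mean of at least 50, as the root mean square difference between centred log2 line means. The lines are only 4 and the measure carries no test. For ULBP2 they were CYP1A1, a target of the aryl hydrocarbon receptor (0.0879), and RASSF5, a Ras effector (0.153). For ULBP1 they were B3GNT3, a glycosyltransferase (0.104), and CNTNAP3, a relative of the neurexins (0.140). For ICAM1 they were CD47, which inhibits phagocytosis by macrophages (0.0221), and NACAD (0.0433). The mean of CD47 was 4663 normalised counts in KO 2, 2671 in KO 1 and 2517 in CRISPR Control, beside 1782 in WT.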

How the data were processed

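RNA of MIA PaCa-2 cells of 4 lines was sequenced in 12 libraries, grouped by sample title. Per the methods and labels, the authors trimmed with Cutadapt, aligned to GRCh38 with STAR, obtained gene counts from featureCounts and normalised them with DESeq2, by a size factor for each library. The deposited values are thus a signal of scaled read counts. The annotation release and the strand setting are not given in the sources used here. Values in all 12 libraries were whole multiples of 1 read (100% within 0.01 reads), which returned the depths and the reads used by edgeR and DESeq2. The table's 4 columns of line means and its 1 blank line were not used.

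Normalised counts were tested as log2(value + 1) with limma (version 3.58.1, R 4.3.3, trended eBayes) on the 15987 genes with a mean of at least 10. The 4 line means came from all 12 libraries. Tests were two-sided and adjusted by Benjamini-Hochberg over all genes tested, with a threshold of 0.05. Fold changes on this scale understate low genes. RAET1L fell below the minimum. The alternatives were a pseudocount of 0.5 or 10, no minimum or a minimum of 50, equal library totals, edgeR 4.0.16 (quasi-likelihood, TMM), DESeq2 1.42.0, the replicate number as a block, and leaving out each library. Code was tested on simulated data.

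The members, the gene lists and the tests were chosen with earlier results of these data known. All listed genes were found by symbol or, for renamed ones, by gene ID. Named genes were the members, TIMP1, the genes most like the 3 members with the widest range among those with a mean of at least 50, and from each list at most 2 with the highest and 2 with the lowest log2 fold change in KO 2 against WT among genes past the threshold in a knockout line. One gene that this rule names is not reported here. HLA-E, ATM and the untested genes of the lists were named after their values were seen. Promoter windows came from RefSeq (GRCh38.p14), 11 windows for all 10 members.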

Additional observations from a re-analysis of the deposited data

Results flagged for a closer look

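Of the 9 tested members, 6 differed between the knockout lines, which were edited in different regions of the same exon, and 38.2% of all tested genes did so. The log2 fold change of KO 2 against KO 1, by limma, was 2.36 for ULBP2 (adjusted p = 1.86e-08), 1.15 for NCR3LG1 (adjusted p = 7.77e-06), 1.03 for ULBP1 (adjusted p = 4.60e-05), 0.91 for ULBP3 (adjusted p = 3.26e-05), 0.77 for ICAM1 (adjusted p = 7.60e-07) and -0.35 for BAG6 (adjusted p = 0.00120). For each of the 6, all 3 libraries of KO 2 lay on one side of all 3 of KO 1. The 6 were called on these same libraries, so this separation adds no support. The share of all tested genes that separated in this way was not computed. TIMP1 RNA was itself lower in KO 2 than in KO 1 (-0.46, adjusted p = 0.000398), and its part in these differences was not tested.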

How the results depend on the processing

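Without the added condition of a common direction, the members that met the rule went from 0 to 1 (NCR3LG1). That is the study's rule as worded, and it was run as a setting after seeing the data. The counts of members called changed by more than 1.5 times only on leaving out single libraries. Over those settings the count in KO 1 against WT ran from 2 to 4, with 2 without WT replicate 2, and in KO 1 against CRISPR Control from 3 to 6, with 3 without KO 1 replicate 3. The other counts of calls kept within 1.5 times in every alternative run. The log2 fold changes that turned sign were not past the threshold before or after. With equal library totals it was MICA in KO 2 against WT (0.028). The others turned on leaving out single libraries, over which MICB ran from -0.045 to 0.14 in KO 1 and from -0.025 to 0.16 in KO 2, each against CRISPR Control, and from -0.015 to 0.051 in KO 2 against KO 1. Over the same settings ULBP3 in KO 1 against WT ran from -0.081 to 0.10, NCR3LG1 in CRISPR Control against WT from -0.36 to 0.029, BAG6 in KO 1 against WT from -0.061 to 0.00054 and ICAM1 in KO 1 against CRISPR Control from -0.0054 to 0.14. The cause was not tested. Of the values of single members, 1041 kept their direction and side of the threshold, 11 lost a call and 12 gained one. The deviations of same-numbered libraries of different lines from their line means had correlations from -0.129 to 0.160. Libraries with different numbers were not compared in this way, so whether the numbers pair the libraries was not tested. With the replicate block 4 members were called in KO 1 against WT and 6 in KO 2 against WT, as without it. Depth limits RAET1L, which had at most 25 reads in a library, and the low values of RAET1G in CRISPR Control.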

Other observations

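The genes around the members were counted in spans chosen after the values were seen. Within 200 kb of the ULBP and RAET1 cluster, 7 other genes were tested. Against WT, none was higher and 1 lower in KO 1, 1 higher and 1 lower in KO 2, and 1 higher and 1 lower in CRISPR Control. Of all tested genes 35.5%, 55.0% and 53.4% passed in these comparisons. LRP11, a lipoprotein receptor relative on the side of RAET1G, was lower in CRISPR Control (-1.11, limma adjusted p = 1.25e-06), as RAET1G was. PPP1R14C, a phosphatase inhibitor on the side of ULBP3, was higher in CRISPR Control (3.26, adjusted p = 3.21e-06) and in KO 2 (1.24, adjusted p = 0.0180). The mean of PPP1R14C over all libraries was 24.1 normalised counts, with CRISPR Control far the highest line. It thus passed the minimum mean for testing mainly through the line in which it is called highest.

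From HLA-B to BAG6, a span that holds MICA and MICB, 7 other genes were tested. Against WT, 1 was higher and 1 lower in both KO 1 and KO 2, and 3 were lower in CRISPR Control. The shares of all tested genes that passed were 35.5% in KO 1, 55.0% in KO 2 and 53.4% in CRISPR Control. HLA-B was the gene that was higher in both knockout lines, while MICA, the next tested gene, did not pass in either. PRRC2A, a large RNA-associated protein whose gene adjoins BAG6, was lower in KO 1 (-0.30, adjusted p = 0.0266), KO 2 (-0.74, adjusted p = 5.71e-06) and CRISPR Control (-0.44, adjusted p = 0.00133).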
